A study of Homo sapiens with 4 samples.

Results

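The genes described here encode the TGF-beta, BMP and activin signalling pathway: its ligands, the proteins that bind or cut those ligands outside the cell, the receptors, the SMAD proteins and the inhibitors inside the cell. The 53 genes were chosen by symbol from the 55765 symbols of the count table, and all 53 were found there. They were measured by RNA sequencing in SK-N-BE(2)C, an established human neuroblastoma line that carries amplified MYCN. One group of 2 libraries came from cells given 10 µM all-trans retinoic acid (ATRA) for 144 h, and the other group of 2 came from cells given the solvent, ethanol, for the same time. Both groups were grown in the same RPMI1640 medium with fetal calf serum, and the labels name no genetic change in either. A single line was used, and nothing in the labels tells whether the pair of libraries in a group stems from different cultures. Each p-value below therefore measures only the spread between these libraries, which may be technical.

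TGF-beta, activins and BMPs are secreted dimers that bring together a type II and a type I receptor kinase. TGF-beta and activin receptors mainly phosphorylate SMAD2 and SMAD3, and BMP receptors mainly phosphorylate SMAD1, SMAD5 and SMAD9. The phosphorylated SMADs join SMAD4 and enter the nucleus, where SKI and SKIL hold them in check, and SMAD6, SMAD7 and the SMURF ubiquitin ligases act against the receptors. In the embryo, BMPs from the dorsal aorta help to specify the sympathetic and adrenal lineage from which neuroblastoma arises, and in many cell types TGF-beta raises genes of the extracellular matrix.

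The ATRA libraries held 15518828 and 16498355 counts, and the ethanol libraries held 12850462 and 19883465. The retinoid check gene CYP26A1, an enzyme that clears retinoic acid, had 140 and 267 CPM (read counts scaled to the size of each library) in the ATRA libraries and 0 reads in both ethanol libraries. All 10 neuroblastoma markers examined were detected, with a summed level of 3619 and 2856 CPM in the ATRA libraries against 7433 and 5594 CPM in the ethanol libraries. MYCN and CHGA made up most of this sum, and the markers did not move alike. GATA3 and CHGA fell, while PHOX2A had 454 and 275 CPM with ATRA and 221 and 165 CPM with ethanol (0.92 ± 0.33, edgeR adjusted p 0.261), and HAND2 and ISL1 were at log2 fold changes of -0.30 and -0.06. In each group 1 title ends in the number 2 (called ATRA 2 and ethanol 2) and 1 has no number (called ATRA 1 and ethanol 1). Transcripts of the mitochondrial ribosomal RNA genes made up 2.49% of ATRA 1 and 0.130% of ATRA 2, against 5.96% of ethanol 1 and 0.0291% of ethanol 2. Differences within libraries of the same number are therefore given beside the main values.

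Promoters are shown for SMAD3, SKIL and INHBA, because these were the 3 pathway genes with the smallest adjusted p-values in the comparison below. Each is the RefSeq window of 300 bases around a transcription start (250 before and 50 after) on build GRCh38.p14, printed 5′ to 3′ on the gene's own strand. Capitals mark matches, on either strand, to CAGAC, the short SMAD box that SMAD3 and SMAD4 can bind, and to GGCGCC, a GC-rich element that SMADs can also bind.
SMAD3, chr15:67065352-67065651, plus strand: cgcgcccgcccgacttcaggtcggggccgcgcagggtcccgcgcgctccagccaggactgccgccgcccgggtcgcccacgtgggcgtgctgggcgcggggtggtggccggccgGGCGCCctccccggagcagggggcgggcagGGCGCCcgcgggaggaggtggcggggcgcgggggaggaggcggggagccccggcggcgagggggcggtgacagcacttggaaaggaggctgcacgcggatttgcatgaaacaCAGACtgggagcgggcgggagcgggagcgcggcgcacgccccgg
SKIL, chr3:170357465-170357764, plus strand: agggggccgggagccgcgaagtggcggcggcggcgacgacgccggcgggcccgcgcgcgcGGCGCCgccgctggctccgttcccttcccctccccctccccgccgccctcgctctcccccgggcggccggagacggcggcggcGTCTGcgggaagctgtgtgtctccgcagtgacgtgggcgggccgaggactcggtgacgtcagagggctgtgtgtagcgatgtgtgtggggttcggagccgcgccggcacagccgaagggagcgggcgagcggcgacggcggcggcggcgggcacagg
INHBA, chr7:41703041-41703340, minus strand: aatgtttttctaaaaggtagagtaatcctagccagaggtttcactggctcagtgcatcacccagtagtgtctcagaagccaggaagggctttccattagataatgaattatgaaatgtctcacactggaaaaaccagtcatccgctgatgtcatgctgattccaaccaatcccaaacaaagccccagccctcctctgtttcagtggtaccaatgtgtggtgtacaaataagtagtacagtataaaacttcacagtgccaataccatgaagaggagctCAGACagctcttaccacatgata
The SMAD3 window is the most upstream of 5 listed for that gene. It held 1 CAGAC match and 2 GGCGCC matches, the SKIL window held 1 of each, and the INHBA window held 1 CAGAC match and 0 GGCGCC matches. In these 3 windows 0 matches overlapped. RefSeq windows were found for 42 of the 53 genes, 71 windows in all. CAGAC was in 43.7% of them against 45.3% of the 35116 windows in the table, and GGCGCC in 28.2% against 19.2%. AGGTCA, the core site of retinoic acid receptors, was in 12.7% against 13.8%, and direct repeats of it spaced by any 5 or any 2 bases were in 0 of the 71 windows, against 2 and 1 of the 35116. Each motif was searched on both strands. A match describes these letters only and is not evidence of binding.

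Does ATRA change the expression of the pathway? Of the 53 genes, 38 had enough counts to be tested and 15 did not. With edgeR's quasi-likelihood test and Benjamini-Hochberg adjustment over all genes, 0 of the 38 passed an adjusted p of 0.05, while 132 of 18900 genes did (0.698%). At an unadjusted p under 0.05, 14 of the 38 were reached (13 higher and 1 lower with ATRA), against 15.9% of all genes tested (9.43% higher and 6.49% lower). In 15 of the 38 genes both ATRA libraries lay above both ethanol libraries, and in 4 both lay below, against 23.8% and 21.7% of all genes tested. The median log2 fold change of the 38 was 0.32, with 0.53 within number 1 and 0.25 within number 2, beside 0.01 for all genes tested. In bulk RNA such as this, fewer cells of a type and less RNA per cell cannot be told apart.

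DESeq2 called 9 of 40 tested pathway genes, all higher with ATRA, against 6.18% of all genes: TGFB1, BMP6, INHBA, GREM1, FSTL1, FSTL3, TGFBR2, SMAD3 and SKIL. In edgeR, leaving out 1 library gave 4 higher without ATRA 1, 9 without ATRA 2, 4 without ethanol 1 and 9 without ethanol 2, where 4.2%, 6.96%, 4.35% and 5.88% of all genes were called. SMAD3, SKIL and INHBA were called in each of these 4 fits. Lower calls numbered 0 with either ATRA library left out, 2 without ethanol 1 (ACVRL1 and INHBE) and 1 without ethanol 2 (BMP7).

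Calls also moved with the scaling, the filter and the test. Upper quartile factors gave 2 higher (SMAD3 and SKIL; 0.73% of all genes called), a minimum mean of 1 CPM gave 1 (SMAD3; 0.92%), and testing all genes with 1 count or more gave 10 higher and 1 lower (4.88%). With 0 pathway genes called stood DESeq2's size factors in edgeR (0.725% of all genes), library size alone (0.624%), mitochondrial genes left out (0.916%), limma-voom (0.265%) and edgeR without robust estimation (0.709%).

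**Figure D1:**
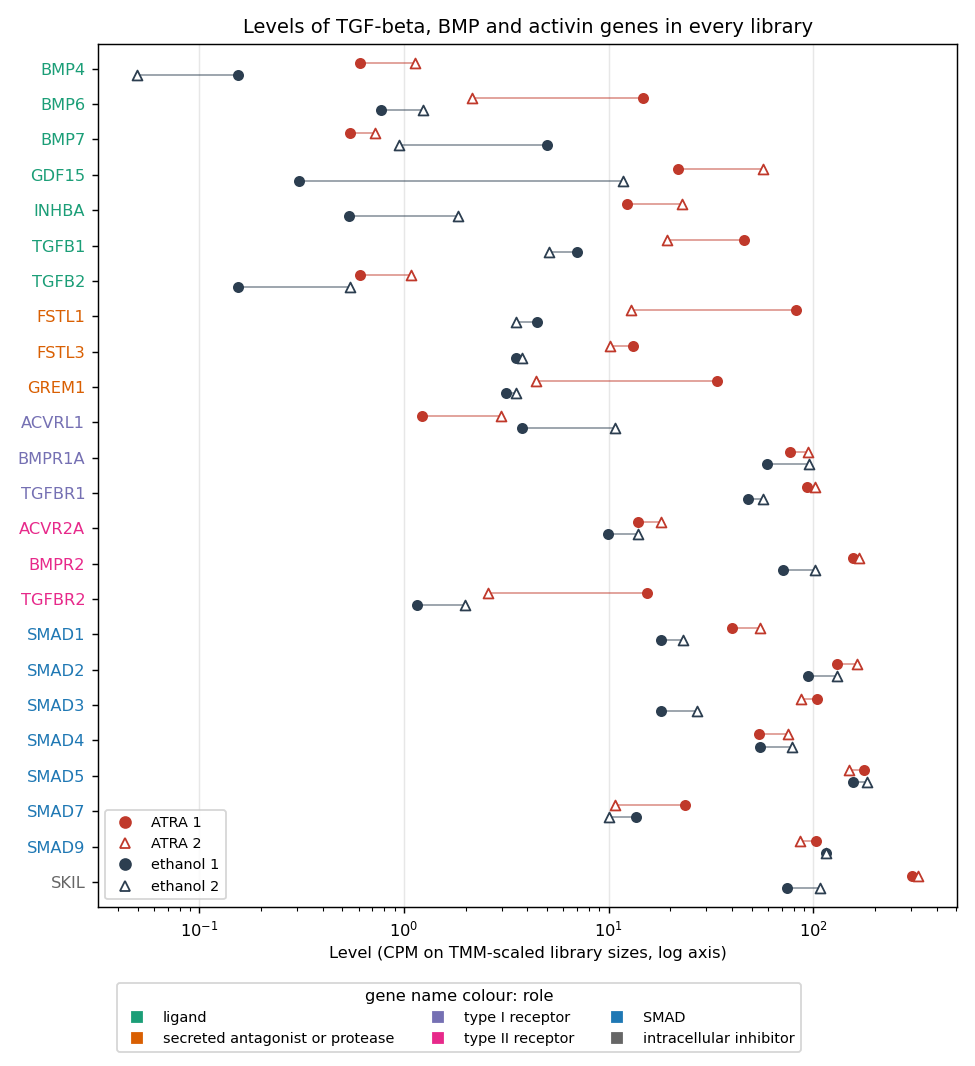
Level of the 24 named pathway genes in each of the 4 libraries, in CPM on a log axis; each gene has its ATRA libraries on the upper line (red) and its ethanol libraries on the lower line (dark), circles are libraries without a number in the title and triangles are those numbered 2. SKIL and SMAD3 show closely placed ATRA points at higher CPM than both ethanol points, while for BMP6, FSTL1, GREM1 and TGFBR2 the ATRA 1 point lies far to the right of the ATRA 2 point.

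Among the 9 ligands tested, INHBA, TGFB1, GDF15 and BMP6 had both ATRA libraries above both ethanol libraries, and BMP7 had both below. Over all genes tested the shares were 23.8% above and 21.7% below. INHBA, the subunit of activin A, had 12.3 and 22.7 CPM in the ATRA libraries and 0.539 and 1.83 CPM in the ethanol libraries. Its mean was 17.5 ± 7.36 CPM with ATRA and 1.19 ± 0.915 CPM with ethanol (SD, n = 2 each). The log2 fold change was 3.84 ± 0.68 (SE; edgeR adjusted p 0.0725), and the differences within numbers 1 and 2 were 4.23 and 3.55. INHBA thus differed by a like amount within both numbers. The subunit of activin B, INHBB, had 0 and 2 reads in the ATRA libraries and 0 reads in both ethanol libraries.

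TGFB1, the most widely expressed of the TGF-beta ligands, had 45.7 and 19.2 CPM in the ATRA libraries and 7.01 and 5.10 CPM in the ethanol libraries. Its log2 fold change was 2.42 ± 0.49 (edgeR adjusted p 0.0922), with 2.68 and 1.89 within numbers. The ATRA libraries lay above the ethanol libraries for TGFB1 in both numbers. TGFB3 had 4.81 and 1.14 CPM with ATRA and 8.47 and 3.62 CPM with ethanol, and the groups overlapped. TGFB2 was too low to test, with 9 and 18 reads in the ATRA libraries and 2 and 11 in the ethanol libraries.

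GDF15, a stress-induced ligand that acts through the receptor GFRAL, had 21.9 and 56.9 CPM in the ATRA libraries and 0.308 and 11.8 CPM in the ethanol libraries. The ethanol libraries were far apart, and the log2 fold change was 2.67 ± 1.26 (edgeR adjusted p 0.378). It was 5.67 within number 1 and 2.26 within number 2. GFRAL itself had 0 reads in all 4 libraries, which allows a level of up to 0.0464 CPM over them (3 counts; this limit and the BMP4 range given next cover counting error only, because PCR copies were not told apart by molecular identifiers).

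The BMP ligands other than BMP6 had at most 5.20 CPM in any library. BMP6 had 14.6 and 2.15 CPM in the ATRA libraries and 0.770 and 1.24 CPM in the ethanol libraries, a log2 fold change of 3.03 ± 0.97 (edgeR adjusted p 0.206) that was 4.05 within number 1 and 0.74 within number 2. BMP7, a kidney and neural crest morphogen, had 0.542 and 0.718 CPM with ATRA and 5.00 and 0.941 CPM with ethanol. ATRA libraries were lower for BMP7, but ethanol 1 alone stood far above the rest. BMP7 was at -2.21 ± 0.92 (edgeR adjusted p 0.324), with -2.95 and -0.34 within numbers.

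BMP4, which patterns the sympathetic lineage, was too low for the main test. It had 9 and 19 reads in the ATRA libraries and 2 and 1 in the ethanol libraries. The counts, pooled over the libraries of each group, stood at a ratio of 9.83. Counting error gives this ratio a 95% range of 3.04 to 50.5, which leaves out the spread between libraries. DESeq2 did test BMP4 and did not call it (adjusted p 0.335). GDF6 had 11 and 4 reads with ATRA and 0 with ethanol. Against a floor of 3 counts over the ethanol group this is a ratio of 5.27, which leaves out counting error in the ATRA reads. GDF6 was not called when all genes with 1 count or more were tested. GDF11, a ligand close to myostatin, had 33.4 and 71.1 CPM in the ATRA libraries and 42.3 and 57.8 CPM in the ethanol libraries. Its groups overlapped and its log2 fold change was 0.06 ± 0.41.

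For the remaining ligands the groups overlapped or there were almost no reads. BMP8B, which was lower with ATRA within both numbers (-0.82 and -0.14), had 1.56 and 4.73 CPM with ATRA and 2.85 and 5.20 CPM with ethanol. INHBE, a liver activin subunit that is also a target of the integrated stress response, had 1.69 and 2.21 CPM with ATRA and 0.539 and 10.4 CPM with ethanol, so the ethanol 2 library alone was high. BMP2, BMP3, BMP5, GDF10, NODAL and LEFTY1 had at most 8 reads in any library, and LEFTY2 had 0 in all 4.

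Outside the cell, 4 ligand-binding proteins or proteases were tested. The ligand-binding proteins FSTL1, GREM1 and FSTL3 had both ATRA libraries above both ethanol libraries, as had 23.8% of all genes tested. For the protease BMP1 the groups overlapped. FSTL3, a follistatin-like protein that binds and neutralises activins, had 13.1 and 10.1 CPM in the ATRA libraries and 3.54 and 3.77 CPM in the ethanol libraries. Both groups were tight. FSTL3 had a log2 fold change of 1.66 ± 0.40 (edgeR adjusted p 0.122), with 1.85 and 1.40 within numbers.

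FSTL1 and GREM1 were high in 1 ATRA library above all. FSTL1, a secreted glycoprotein of mesenchymal cells, had 81.8 and 12.8 CPM in the ATRA libraries and 4.47 and 3.52 CPM in the ethanol libraries (log2 fold change 3.57 ± 0.87, edgeR adjusted p 0.127; 4.16 and 1.83 within numbers). GREM1, an antagonist of BMP2 and BMP4, had 33.7 and 4.43 CPM in the ATRA libraries and 3.16 and 3.52 CPM in the ethanol libraries (2.51 ± 0.91, edgeR adjusted p 0.257; 3.37 and 0.32 within numbers). For GREM1 the ATRA 2 library was thus close to the ethanol libraries. BMP1 is a procollagen protease and no BMP in spite of its name, and it had 83.7 and 28.1 CPM with ATRA and 28.7 and 26.9 CPM with ethanol. The antagonists NOG, CHRD and FST had at most 7 reads in any library, with 0 in all 4 for NOG.

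Among the 6 type I receptors tested, the groups were apart for TGFBR1, higher with ATRA, and for ACVRL1, lower with ATRA. Of all genes tested, 23.8% were apart with ATRA higher and 21.7% with ATRA lower. TGFBR1, the TGF-beta type I receptor, had 92.8 and 101 CPM in the ATRA libraries and 47.9 and 56.9 CPM in the ethanol libraries. TGFBR1 had a log2 fold change of 0.89 ± 0.24 (edgeR adjusted p 0.153), with 0.95 and 0.83 within numbers, and the groups were well apart. ACVRL1, a receptor for BMP9 and BMP10 best known from endothelium, had 1.22 and 2.99 CPM in the ATRA libraries and 3.77 and 10.7 CPM in the ethanol libraries. It was at -1.78 ± 0.72 (edgeR adjusted p 0.311), with -1.54 and -1.80 within numbers. In the other 4 the groups overlapped. BMPR1A had 76.7 and 94.3 CPM with ATRA and 59.4 and 95.7 CPM with ethanol, and the log2 fold changes of BMPR1A, BMPR1B, ACVR1 and ACVR1B were 0.14 ± 0.31, -0.19 ± 0.32, 0.15 ± 0.40 and -0.05 ± 0.39. ACVR1C had at most 3 reads in any library.

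Of the 4 type II receptors, BMPR2 and TGFBR2 had both ATRA libraries above both ethanol libraries, as had 23.8% of all genes tested. BMPR2, the BMP type II receptor, had 155 and 168 CPM in the ATRA libraries and 71.3 and 102 CPM in the ethanol libraries. Its log2 fold change was 0.90 ± 0.27 (edgeR adjusted p 0.190), with 1.12 and 0.72 within numbers. TGFBR2, which TGF-beta binds first, was low in all libraries but 1: it had 15.4 and 2.57 CPM in the ATRA libraries and 1.15 and 1.98 CPM in the ethanol libraries. TGFBR2 had a log2 fold change of 2.5 ± 0.90 (edgeR adjusted p 0.256), yet it was 3.61 within number 1 and 0.36 within number 2. The activin type II receptor ACVR2A had 13.9 and 18.1 CPM with ATRA and 9.93 and 13.9 CPM with ethanol, and ACVR2B was at -0.21 ± 0.29.

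Of the 3 co-receptors, the groups were apart for TGFBR3 alone, lower with ATRA, as were 21.7% of all genes tested. An unadjusted p under 0.05 in edgeR was reached by 0 of the 3, against 15.9% of all genes tested. TGFBR3, or betaglycan, which presents TGF-beta to TGFBR2, had 1.56 and 1.32 CPM with ATRA and 2.54 and 3.12 CPM with ethanol, with both ATRA libraries lower (-0.98 ± 0.54, edgeR adjusted p 0.461). ENG, the endothelial co-receptor endoglin, had 6.30 and 1.91 CPM with ATRA and 2.23 and 1.59 CPM with ethanol. The pseudoreceptor BAMBI, which lacks a kinase domain, was higher in the library without a number in either group: it had 46.9 and 17.6 CPM with ATRA and 40.7 and 14.9 CPM with ethanol.

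**Figure D2:**
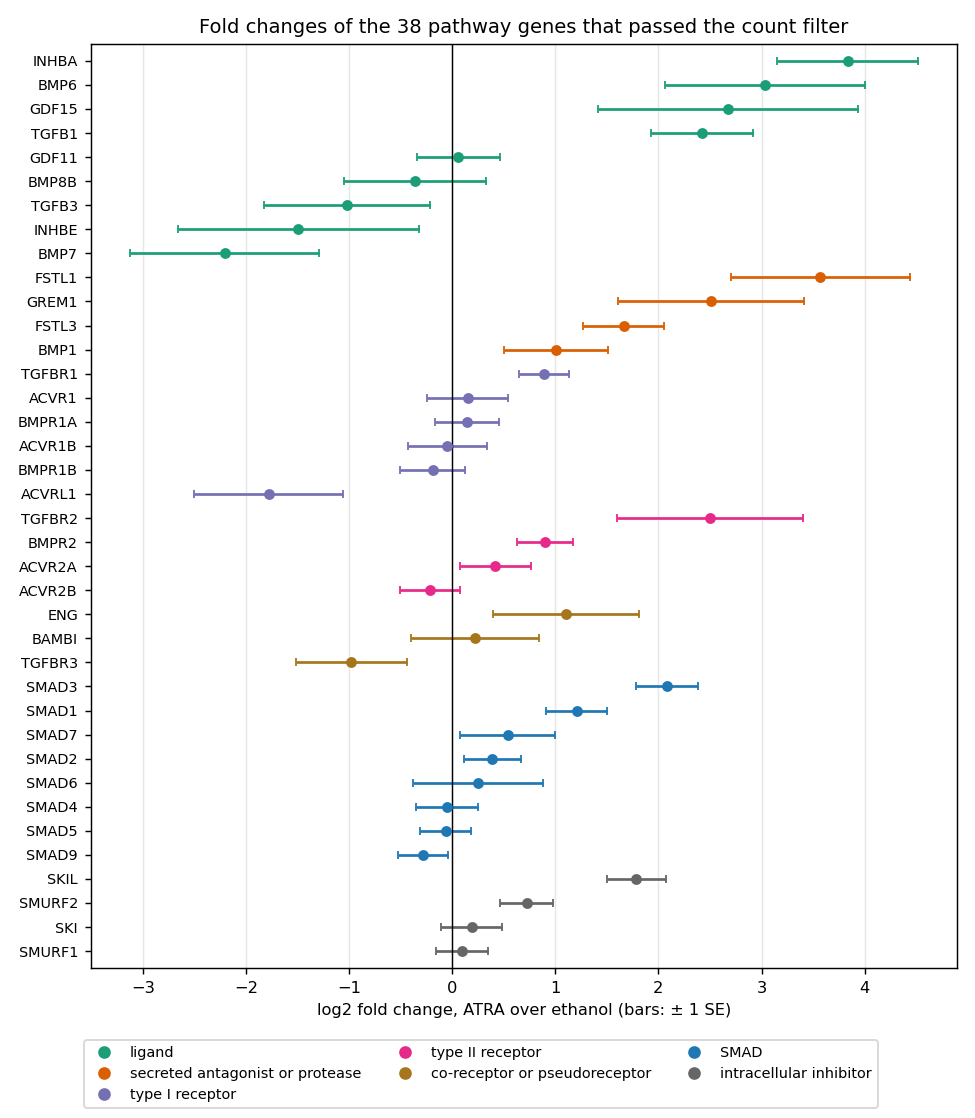
Log2 fold change of ATRA over ethanol for each of the 38 tested pathway genes, grouped by role; points are edgeR estimates and bars are 1 SE either side. SMAD3, SKIL, TGFB1 and INHBA lie several SE above 0, while SMAD4, SMAD5, BMPR1A and ACVR1B lie at 0 within 1 SE.

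Of the 8 SMADs, SMAD3, SMAD1 and SMAD2 had both ATRA libraries above both ethanol libraries, and SMAD9 had both below. The shares over all genes tested were 23.8% above and 21.7% below. SMAD3, a mediator of TGF-beta and activin signals, had 104 and 86.7 CPM in the ATRA libraries and 17.9 and 26.9 CPM in the ethanol libraries. Its mean was 95.4 ± 12.3 CPM with ATRA and 22.4 ± 6.34 CPM with ethanol (SD, n = 2 each), a ratio of 4.25. The log2 fold change was 2.09 ± 0.30 and missed the threshold narrowly (edgeR adjusted p 0.0528), with 2.53 and 1.68 within numbers. Over the other settings tried its adjusted p ran between 1.61e-06 and 0.0633, and it was called in 9 of the 15 fits.

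SMAD1, a mediator of BMP signals, had 40.0 and 55.1 CPM in the ATRA libraries and 18.1 and 23.1 CPM in the ethanol libraries. Its log2 fold change was 1.21 ± 0.30 (edgeR adjusted p 0.128), with 1.14 and 1.25 within numbers, which were thus close to each other. SMAD2 and SMAD5 are the close relatives that act beside SMAD3 and SMAD1. SMAD2 had 130 and 163 CPM with ATRA and 94.2 and 129.8 CPM with ethanol (0.39 ± 0.28). SMAD5 had 176 and 149 CPM with ATRA and 156 and 184 CPM with ethanol (-0.06 ± 0.25). SMAD9 had 103 and 86.2 CPM with ATRA and 115 and 116 CPM with ethanol (-0.28 ± 0.24), with both ATRA libraries below both ethanol libraries.

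SMAD4, the common partner, had 54.3 and 75.1 CPM in the ATRA libraries and 54.7 and 78.9 CPM in the ethanol libraries, a log2 fold change of -0.05 ± 0.30. The inhibitory SMAD7 had 23.6 and 10.7 CPM with ATRA and 13.6 and 10.1 CPM with ethanol (0.54 ± 0.46), and the inhibitory SMAD6 had 34.5 and 9.15 CPM with ATRA and 22.9 and 13.9 CPM with ethanol (0.25 ± 0.63). For SMAD6 and SMAD7 the groups overlapped. The signs of SMAD4, SMAD5, SMAD7 and BMPR1A turned when certain single libraries were left out, so no direction is given for them.

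SKIL, also called SnoN, a co-repressor that binds SMAD complexes and whose own gene TGF-beta induces, had 304 and 326 CPM in the ATRA libraries and 74.4 and 108 CPM in the ethanol libraries. Its mean was 315 ± 15.5 CPM with ATRA and 91.2 ± 23.7 CPM with ethanol (SD, n = 2 each), a ratio of 3.45. The log2 fold change was 1.79 ± 0.28 (edgeR adjusted p 0.0617), with 2.03 and 1.59 within numbers, and the adjusted p over the other settings ran between 9.14e-05 and 0.0738. Its relative SKI had 20.3 and 19.1 CPM with ATRA and 19.6 and 15.0 CPM with ethanol (0.19 ± 0.30).

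The ubiquitin ligase SMURF2, which marks receptors and SMADs for breakdown, had 65.9 and 57.1 CPM in the ATRA libraries and 33.2 and 41.4 CPM in the ethanol libraries (0.72 ± 0.25, edgeR adjusted p 0.247). The groups were apart with ATRA higher, as they were in 23.8% of all genes tested. SMURF1 had 32.4 and 34.8 CPM with ATRA and 29.1 and 33.9 CPM with ethanol (0.09 ± 0.25).

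**Figure D3:**
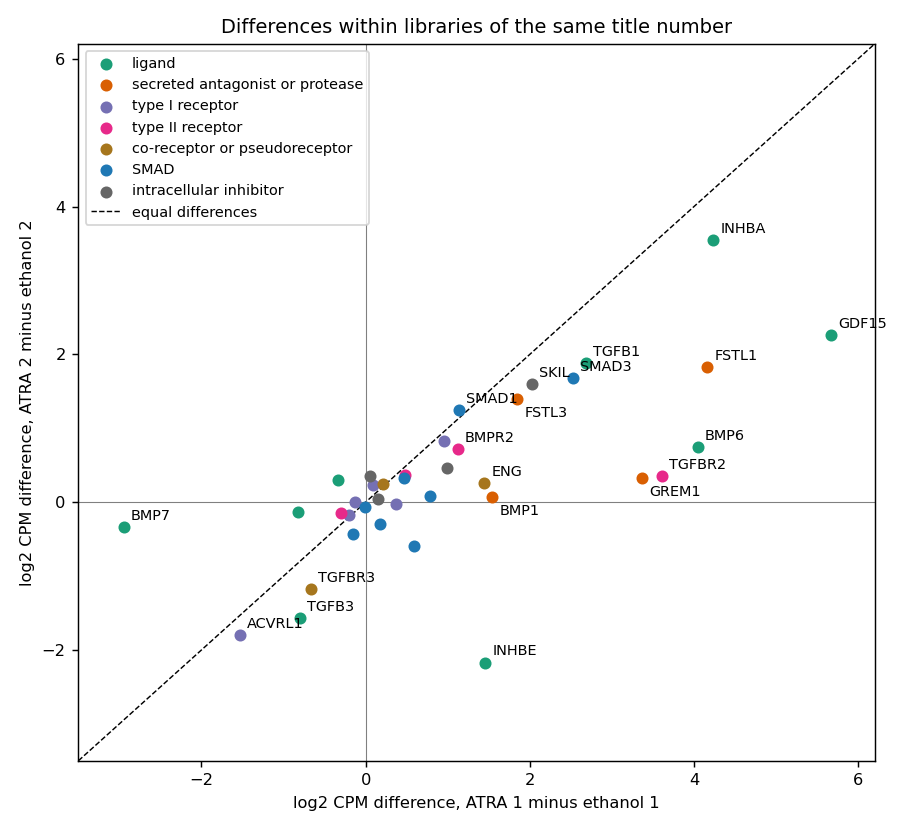
Difference in log2 CPM between ATRA and ethanol within the libraries without a number (x axis) and within those numbered 2 (y axis), 1 point for each of the 38 tested genes, coloured by role, with a dashed line where both are equal. INHBA, TGFB1, SMAD3, SKIL, SMAD1 and FSTL3 lie within 1 log2 unit of the line, GREM1, TGFBR2, BMP6 and FSTL1 lie well to the right of it, and INHBE has opposite signs.

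Within the title numbers, 23 of the 38 genes were higher with ATRA in both, 9 were lower in both and 6 had opposite signs. The 6 were INHBE, GDF11, BMPR1A, ACVR1B, SMAD5 and SMAD6. ATRA was higher by over 2 log2 units in 9 genes within number 1 and in 2 within number 2, INHBA and GDF15. It was lower by over 2 log2 units for BMP7 within number 1 (-2.95) and for INHBE within number 2 (-2.17). In 9 genes the difference within number 1 exceeded that within number 2 by over 1 log2 unit: BMP6, INHBE, GDF15, BMP1, GREM1, FSTL1, TGFBR2, ENG and SMAD6. The share of mitochondrial ribosomal RNA also differed by title number, and its part in these differences was not tested.

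Levels can be compared between genes only per length, here as CPM per kilobase of the median coding transcript in GENCODE 29. On this scale SKIL was the highest of the 53 genes with ATRA, at 108 ± 5.32, followed by SMAD3 at 62.3 ± 8.02 and the activin receptor gene ACVR1B at 34.6 ± 13.8 (SD, n = 2). With ethanol the order began with ACVR1B at 35.7 ± 12.2, SKIL at 31.4 ± 8.14 and BMPR1B at 26.6 ± 6.62, and these 3 did not differ beyond their spread. SMAD3 was at 14.7 ± 4.14 with ethanol. Taking the longest transcript in place of the median, SKIL remained first with ATRA at 43.8, and SMAD5 stood first with ethanol at 24.2, with SKIL at 12.7. The order therefore rests on the length chosen, apart from the first place of SKIL with ATRA.

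How did known targets of the pathway stand? Lists of genes that SMAD2/3 and SMAD1/5 complexes are known to regulate in other cells were read from the same fit. The lists were written with earlier results of these data known, so they are not independent of the data. Of 23 tested SMAD2/3 targets 3 rose and 0 fell at edgeR's adjusted threshold, beside 0.545% and 0.153% of all genes. At an unadjusted p under 0.05 stood 17 of the 23 (16 higher, and SNAI1 lower). The share of all genes at that unadjusted threshold was 15.9% (9.43% higher and 6.49% lower). Both ATRA libraries lay above both ethanol libraries in 18 of the 23, against 23.8% of all genes tested. Their median was 1.94 on the log2 fold change scale, beside 2.29 within number 1 and 1.38 within number 2. Without SKIL and SMAD7, which belong to the pathway genes as well, the median of the other 21 was 2.57.

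Of these targets, FN1, the matrix protein fibronectin, rose to 464 and 682 CPM in the ATRA libraries, against 21.7 and 33.8 CPM in the ethanol libraries (4.37 ± 0.38, edgeR adjusted p 0.0274). IGFBP3, a secreted binder of insulin-like growth factors, rose to 106 and 93.6 CPM with ATRA, against 3.70 and 8.47 CPM with ethanol (4.02 ± 0.45, edgeR adjusted p 0.0381). The collagen gene COL3A1 rose to 112 and 27.7 CPM with ATRA, against 0.539 and 1.09 CPM with ethanol (6.36 ± 0.85, edgeR adjusted p 0.0459), and its call was lost without ethanol 1 (adjusted p 0.160). Several of these genes are also known in other responses, and their dependence on SMADs was not measured here.

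Of 15 tested SMAD1/5 targets 0 passed edgeR's adjusted threshold, where 0.698% of all genes did, and 1 was higher and 2 lower at an unadjusted p under 0.05 (20% of the 15), against 9.43% and 6.49% of all genes. DESeq2 called 1 of the SMAD1/5 targets, against 6.18% of all genes. The median of the 15 stood at -0.10 on the log2 fold change scale, beside -0.15 within number 1 and -0.17 within number 2. SMAD6, SMAD7, SMAD9 and BAMBI belong to the pathway genes as well, and SMAD7 is also on the SMAD2/3 list. Without these 4, the median of the other 11 was -0.36. Both ATRA libraries lay above both ethanol libraries in 2 of the 15 and below in 5, against 23.8% and 21.7% of all genes tested. HEY1, a transcriptional repressor that Notch also drives, had 87.9 and 82.4 CPM in the ATRA libraries and 30.2 and 23.1 CPM in the ethanol libraries (1.68 ± 0.26, edgeR adjusted p 0.0591). ID3, an inhibitor of basic helix-loop-helix factors and a classical BMP target, had 69.8 and 55.2 CPM with ATRA and 139 and 102 CPM with ethanol (-0.95 ± 0.28, edgeR adjusted p 0.180). HEY1 and ID3 thus stood on opposite sides. The SMAD2/3 and SMAD1/5 lists were not compared with each other by a test.

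**Figure D4:**
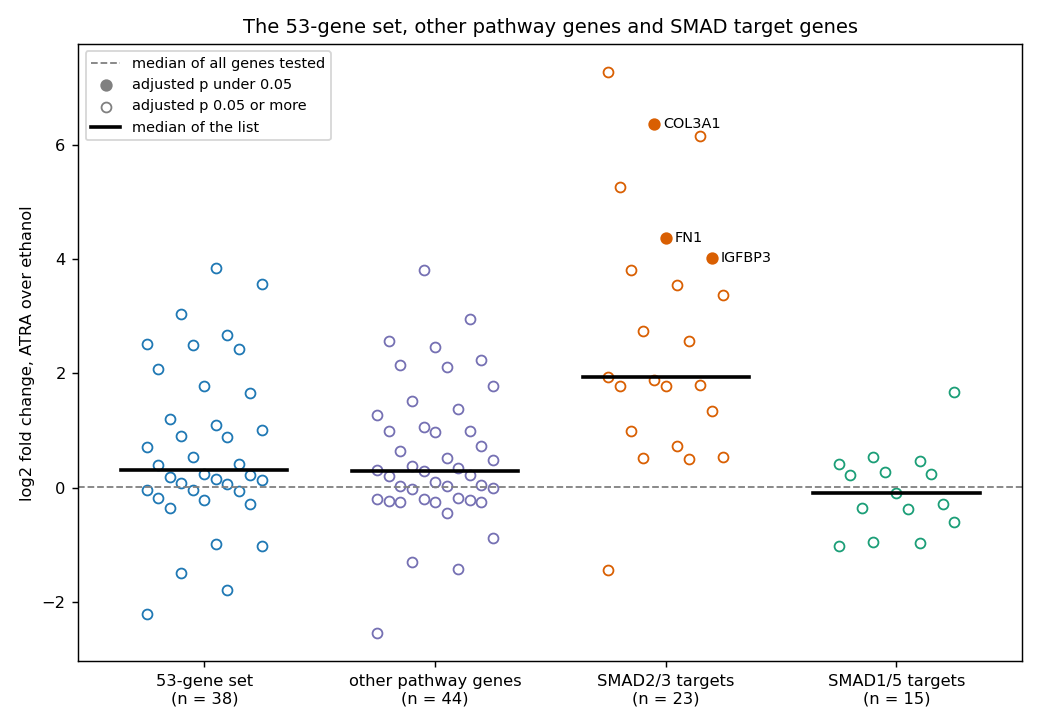
Log2 fold change of ATRA over ethanol for the tested genes of the 53-gene set, of other pathway genes and of the SMAD2/3 and SMAD1/5 target lists; filled points passed an adjusted p of 0.05, black bars are list medians and the dashed line is the median of all genes tested. The SMAD2/3 targets have a median of 1.94 and hold the 3 filled points FN1, IGFBP3 and COL3A1, and the SMAD1/5 targets have a median of -0.10. Genes on several lists are drawn in each.

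Further genes of the pathway outside the 53 were examined as a list of 67, of which 44 were tested. PMEPA1, LTBP2, THBS1 and TGIF1 are on this list and on the SMAD2/3 target list. In edgeR 0 of the 44 passed the adjusted threshold, which 0.698% of all genes did. At an unadjusted p under 0.05, 8 were higher and 2 lower (22.7% of the 44), against 9.43% higher and 6.49% lower (15.9%) of all genes. DESeq2 called 9, against 6.18% of all genes. Their median log2 fold change was 0.30. LTBP3, which holds latent TGF-beta in the matrix, had 131 and 54.6 CPM in the ATRA libraries and 11.1 and 12.8 CPM in the ethanol libraries (2.96 ± 0.47, edgeR adjusted p 0.0609). PMEPA1, a membrane protein that TGF-beta induces and that sequesters SMAD2 and SMAD3, had 149 and 71.2 CPM with ATRA and 36.9 and 27.4 CPM with ethanol (1.78 ± 0.41, edgeR adjusted p 0.116). In both genes the ATRA libraries lay above the ethanol libraries.

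Markers of other cell types were read beside these results. The 7 fibroblast and mesenchyme markers, which share COL1A1 and COL1A2 with the SMAD2/3 list, summed to 304 and 573 CPM in the ATRA libraries and 397 and 700 CPM in the ethanol libraries. This sum, mostly DCN, THY1, PDGFRB and LUM, holds genes that went opposite ways: 0 of the 6 tested passed edgeR's adjusted threshold, with 2 higher and 1 lower at an unadjusted p under 0.05. COL1A1 had 23.0 and 4.91 CPM with ATRA and 0 and 0.644 CPM with ethanol, and PDGFRA had 7.86 and 2.15 CPM with ATRA and 0.462 and 1.29 CPM with ethanol. LUM had 13.7 and 21.8 CPM with ATRA and 39.8 and 126 CPM with ethanol. The 4 Schwann cell markers summed to 17.5 and 20.1 CPM with ATRA and 6.70 and 5.80 CPM with ethanol, and 0 of them passed edgeR's adjusted threshold, with 2 higher at an unadjusted p under 0.05. The 4 endothelial markers summed to at most 1.02 CPM in any library, the 4 blood markers to at most 1.35 CPM with CD68 at 0 reads, and the 4 epithelial markers to at most 1.73 CPM with KRT5 at 0 reads. The part of these marker genes' cells in the values of the pathway genes was not tested.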

How the data were processed

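Libraries were made from ribosome-depleted total RNA with a directional kit, per the labels' protocols. The authors deposited raw read counts per gene symbol, and STAR 2.5.2b, featureCounts 1.5.1 and build hg19 are named in the submitters' processing notes. The annotation, strand setting and treatment of shared reads are not given in the sources at hand, so reads of overlapping or antisense genes are uncertain. The table held 0 rows without a gene. From the counts, genes passing filterByExpr (minimum count 10) were scaled by TMM and tested in edgeR 4.0.16 (R 4.3.3) with the robust quasi-likelihood F test, treatment being the sole term (2 residual degrees of freedom). P-values are two-sided and Benjamini-Hochberg adjusted over 18900 genes, with a threshold of 0.05. SE is the log2 fold change divided by the root of F. CPM use TMM-scaled library sizes, and log2 differences within title numbers use a prior count of 2. DESeq2 1.42.0 and limma-voom 3.58.1 were alternatives. The procedure was tested on simulated data.

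The pathway genes, lists and tests were chosen with earlier results of these data known. Genes given in every library are those past the threshold, the 12 largest log2 fold changes, the 6 highest mean CPM and 16 fixed receptors, SMADs and ligands. Each other list is represented by at most 3 calls per direction, ranked by fold change, or without calls by its 2 lowest p-values. Remaining pathway genes are given by role. Promoter windows came from RefSeq and transcript lengths from GENCODE 29, both on a later build than the counts and joined by symbol.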

Additional observations from a re-analysis of the deposited data

How the results depend on the processing

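Of the 29 named genes that were tested, none changed direction with another scaling, filter or test among the alternatives run. Signs turned without single libraries for 4 genes. The log2 fold change then ran between -0.21 and 0.54 for BMPR1A (turned without ATRA 2 or ethanol 1), -0.33 and 0.26 for SMAD4 (ATRA 1 or ethanol 2), -0.22 and 0.076 for SMAD5 (ATRA 2 or ethanol 2), and -0.15 and 0.99 for SMAD7 (ATRA 1). The number of calls depended strongly on the test, and the cause was not tested. All genes called numbered 132 in the main test, 1821 with all genes of 1 count or more (the 1-count filter), 1260 with DESeq2, 50 with limma-voom, and between 870 and 1442 without 1 library. Pathway genes called higher numbered 0 in the main test, 2 with upper quartile factors, 10 under the 1-count filter, 1 with a minimum mean of 1 CPM, 9 with DESeq2 and between 4 and 9 without 1 library. Pathway genes called lower numbered 0 in the main test, 1 under the 1-count filter and between 0 and 2 without 1 library. Of the other pathway genes 0 were called in the main test, 9 under the 1-count filter, 9 with DESeq2 and between 2 and 10 without 1 library. SMAD2/3 targets called numbered 3 in the main test, 16 under the 1-count filter, 15 with DESeq2 and between 8 and 17 without 1 library. SMAD1/5 targets called numbered 0 in the main test, 1 under the 1-count filter, 1 with DESeq2 and 1 in each fit without 1 library. COL3A1 was also not called with limma-voom (adjusted p 0.116). Fits without 1 library assume that the lone library of a group varies like the other group.

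The title numbers are shared between groups, but the labels do not say that they mark a shared culture or batch. Across the 18900 genes, the difference between libraries 1 and 2 correlated at 0.632 between the groups, which is a hint from the data and not from the design. With the title number as a replicate block, 4098 genes (21.7%) were called, with 9 pathway genes higher, 2 lower (ACVRL1 and TGFB3), 12 other pathway genes, 16 SMAD2/3 targets and 4 SMAD1/5 targets. The 9 were TGFB1, INHBA, FSTL3, TGFBR1, BMPR2, SMAD1, SMAD3, SMURF2 and SKIL, and COL3A1 was not called (adjusted p 0.0613). Depth limits the 15 untested pathway genes, the fullest of which, TGFB2, had 40 reads over all 4 libraries.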

Other observations

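A few genes of the wider pathway were named after their values were seen. PCSK6, a convertase that cuts precursors of this ligand family, had 1.29 and 1.5 CPM in the ATRA libraries and 11.9 and 4.46 CPM in the ethanol libraries (-2.55 ± 0.63, edgeR adjusted p 0.132). TMEFF2, a membrane protein with follistatin-like domains, had 11.1 and 7.24 CPM with ATRA and 23.1 and 22.1 CPM with ethanol (-1.30 ± 0.34, edgeR adjusted p 0.146). AMHR2, the receptor for anti-Müllerian hormone, had 5.69 and 8.44 CPM with ATRA and 1.00 and 2.23 CPM with ethanol (2.11 ± 0.59, edgeR adjusted p 0.164). NEDD4L, a ubiquitin ligase that acts on SMAD2 and SMAD3, had 41.7 and 48.3 CPM with ATRA and 12.5 and 22.1 CPM with ethanol (1.37 ± 0.35, edgeR adjusted p 0.135). THBS1, an activator of latent TGF-beta, had 32.2 and 4.37 CPM with ATRA and 1.54 and 1.09 CPM with ethanol (3.80 ± 0.98, edgeR adjusted p 0.140). LTBP1, which binds latent TGF-beta, was higher in the library without a number in either group, with 153 and 11.6 CPM with ATRA and 27.9 and 2.18 CPM with ethanol (2.47 ± 1.43, edgeR adjusted p 0.491). The groups did not overlap in 5 of the 6 genes and overlapped in LTBP1. Because the 6 were picked by their values, this count cannot be set against all genes. In the full list of 44 tested genes, both ATRA libraries lay above both ethanol libraries in 16 (36.4%) and below in 6 (13.6%). The shares over all genes tested were 23.8% and 21.7%.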
